A study of Mus musculus with 15 samples.

Results

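The genes described here encode 10 surface molecules by which endothelium catches, holds and passes leukocytes: Sele, Selp, Cd34, Madcam1, Vcam1, Icam1, Icam2, Alcam, Cd99l2 and Cd93. They were chosen by symbol, taking every probe set of the array whose single annotated symbol was one of these names. Each gene had 1 such probe set, so the set held 10 of 22206 probe sets and 10 of 19505 annotated symbols.

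The arrays profiled total RNA of purchased mouse lymphatic endothelial cells (LECs), which the sample labels call a cell line and the study's text calls primary cells, kept in serum-supplemented DMEM. Of 15 arrays, 5 were of cells given saline (control), 5 of cells given angiotensin II (Ang II) at 500 nM for 12 h, and 5 of cells given Ang II at 500 nM for 24 h. Ang II is the effector peptide of the renin-angiotensin system, and the comparison asked how LECs respond to it over time. No harvest time is given for the saline cells, and the written methods also mention a lower Ang II dose than the sample labels do. The labels give no genetic change in any group, and nothing states that the 5 arrays of a group came from separate cultures. The p-values therefore measure the spread between these arrays, which may be technical.

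Leukocytes leave a vessel in steps. Selectins and sialomucins slow the cell, immunoglobulin-family receptors bind its integrins and stop it, and further molecules guide it between endothelial cells. Lymphatic endothelium displays some of the same molecules to cells entering lymph, and in endothelium exposed to tumour necrosis factor or interleukin-1 the transcription factor NF-kB switches on Sele, Vcam1 and Icam1.

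The promoters of Sele and Icam1 are shown because both genes are textbook NF-kB targets and their probe sets gave 2 of the larger differences among the members. The sequences are from RefSeq, build GRCm38.p6, and run 5′ to 3′ on the plus strand from 250 bases before to 50 bases after the transcription start that its promoter table uses, at chr1:164047984-164048283 for Sele and at chr9:21015690-21015989 for Icam1. The Sele gene as RefSeq annotates it begins upstream of this window, so for Sele the start used is one inside the annotated gene. Capitals mark matches to GGNNNTTCC, a short form of the NF-kB motif, on either strand.
Sele: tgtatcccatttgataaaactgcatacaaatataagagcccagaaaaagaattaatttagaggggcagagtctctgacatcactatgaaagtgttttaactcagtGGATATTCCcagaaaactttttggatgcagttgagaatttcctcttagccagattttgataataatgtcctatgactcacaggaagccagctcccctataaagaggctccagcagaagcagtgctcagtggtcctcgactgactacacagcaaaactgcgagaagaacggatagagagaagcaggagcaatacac
Icam1: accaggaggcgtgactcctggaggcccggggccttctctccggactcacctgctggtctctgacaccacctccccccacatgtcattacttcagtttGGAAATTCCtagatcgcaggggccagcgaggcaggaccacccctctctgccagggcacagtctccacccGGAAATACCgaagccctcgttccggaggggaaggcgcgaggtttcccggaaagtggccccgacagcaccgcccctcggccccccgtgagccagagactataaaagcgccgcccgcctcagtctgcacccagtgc

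The Sele window held 1 match, GGATATTCC, and the Icam1 window held 2, GGAAATTCC and, with its motif on the minus strand, GGAAATACC. Of the 10 members, 7 were matched to the promoter table, and Vcam1, Icam2 and Cd93 were not. Selp held 1 match (GGAAAGGCC as read on the plus strand) and Madcam1 held 2 (GGAAAGCCC and GGAAAGTCC), so 4 of 7 member windows held the letters, against 18.5% of 32851 promoter windows of the same length. The match describes the letters and shows no binding.

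The deposited values are log2 signals after robust multi-array averaging, and a log2 difference of 1 is a doubling of signal. As a mark of low signal, 487 probe sets of gene families that endothelium does not use (defensins, keratin-associated proteins, and the taste, vomeronasal and trace amine receptors) were taken. Their 95th percentile was a log2 level of 6.26 and their median 4.66. Only Alcam (9.98) and Cd99l2 (6.32) had mean levels above this mark. Cd99l2 was close to it, and its 12 h mean of 6.17 lay below it. The other 8 members lay below the mark, where a probe set's signal cannot be told from that of unused genes. The array median was between 4.8 and 4.84 in every array. Among the arrays, 2 stood apart: the mean correlation with the other arrays was 0.957 for control replicate 3 and 0.962 for Ang II 24 h replicate 3, while for the other 13 it lay between 0.966 and 0.969. Where leaving out either array moved a member's larger differences, the value without it is given beside them.

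The cell label was checked against marker lists. None of 11 measured pan-endothelial markers had a mean level above the mark, and of 8 lymphatic markers only the chemokine Ccl21a did (6.43). The lymphatic regulator Prox1 had a mean level of 5.09, Lyve1 of 4.32 and the junction protein Pecam1 of 3.73, so the arrays gave little signal for the defining genes of this cell type. The study itself identified the cells by immunostaining for LYVE-1 and VEGFR-3, the product of Flt4. It added qPCR of both and of Prox1, and an immunoblot of VEGFR-3. On the arrays Flt4 had a mean level of 4.62, below the mark. Among the other lists, 1 of 10 leukocyte, 2 of 5 epithelial, 0 of 6 fibroblast and 0 of 7 smooth muscle markers were above it. The leukocyte marker above it was Ptprc, and the epithelial ones were Krt8 and Krt18.

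**Figure D1:**
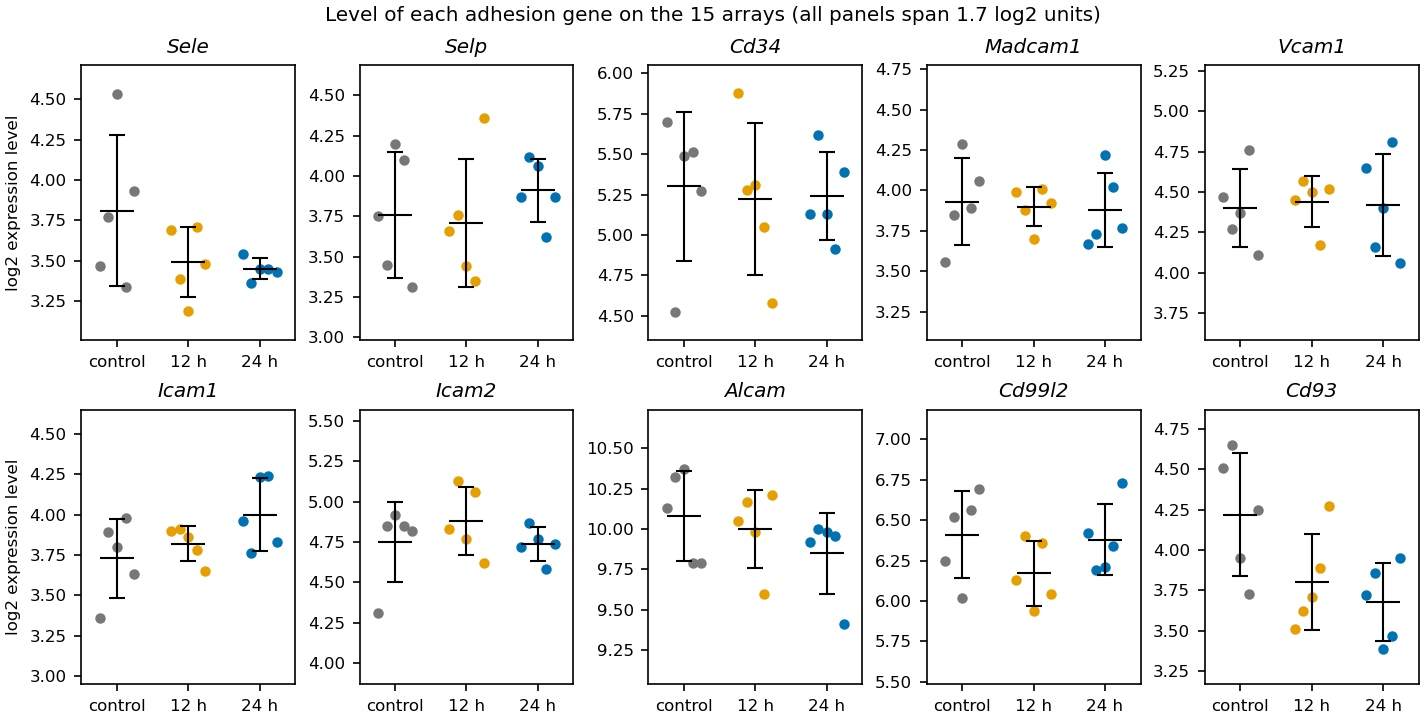
Log2 signal (y axis) of each member in each array, by group (control, Ang II 12 h, Ang II 24 h, 5 arrays each); points are arrays, and bars are the mean with its SD. The groups overlap in all 10 panels, and Cd93 has 3 of 5 Ang II 24 h arrays below every control array.

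No member passed the test after adjustment at either time. At 12 h the number of members past an adjusted p of 0.05 was 0 in limma, with Benjamini-Hochberg adjustment over the whole array, of which 0% passed. At 24 h none did either, against 0.018% of all, and between 24 h and 12 h and in the F test over the 3 groups the count was again 0, against 0.0225% and 0.0225%. Before adjustment only Cd93 had a p under 0.05. It was lower than control at 12 h and at 24 h, and its F test p was also under 0.05. The shares of all probe sets past the same limit were 2.4% lower and 2.51% higher at 12 h, 3.46% lower and 3.64% higher at 24 h, and 6.25% in the F test. Beside these shares, 1 member of 10 is too small a count to set the members apart from the rest of the array. Between 24 h and 12 h no member had an unadjusted p under 0.05, and 5.99% of all probe sets did. No member separated 5 treated from 5 control arrays without overlap, which 0.689% of all probe sets did at 12 h and 1.07% at 24 h.

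Cd93, a C-type lectin-like receptor of endothelium and blood cells that takes part in endothelial adhesion and migration, gave the largest difference of the 10. Its log2 signals in control replicates 1 to 5 were 4.51, 4.65, 3.95, 3.73 and 4.25. At 12 h of Ang II they were 3.51, 3.62, 3.71, 3.89 and 4.27, and at 24 h they were 3.72, 3.86, 3.39, 3.47 and 3.95. All 5 arrays at 24 h and 4 of 5 at 12 h lay below the control mean, but the ranges overlapped, with control replicates 3 and 4 within the treated range at 24 h and control replicates 3, 4 and 5 within it at 12 h. The mean was 4.22 ± 0.38 (SD, n = 5) in control, 3.80 ± 0.30 at 12 h and 3.68 ± 0.24 at 24 h.

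The log2 difference of Cd93 from control was -0.54 at 24 h (SE 0.19, 95% interval -0.93 to -0.15), a signal 0.688 times that of control (0.524 to 0.902). Its p was 0.00939 before and 0.565 after adjustment in limma, and an exact two-sided permutation test over the 5 against 5 arrays gave 0.0397. At 12 h the difference was -0.42 (SE 0.19, interval -0.81 to -0.03, p = 0.0378, adjusted p = 0.966 in limma), and the exact permutation test gave 0.0873. From 12 h to 24 h it was -0.12 (-0.51 to 0.27, adjusted p = 0.968 in limma, exact permutation p = 0.516), so the difference between the times was within the spread of the arrays. The level of Cd93 is below the mark of low signal, and 17.9% of the probe sets of unused families had a lower mean.

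Without 1 array at a time the 24 h difference of Cd93 stayed between -0.66 and -0.43, with a p of at most 0.0353 in limma before adjustment. The 12 h difference lay between -0.54 and -0.31, and its p passed 0.05 without control replicate 1 (0.0981), 2 (0.12) or 5 (0.0597) and without Ang II 12 h replicate 1 (0.0983), 2 (0.081) or 3 (0.0678). Of the arrays that stood apart, leaving out control replicate 3 alone gave -0.49 at 12 h and -0.61 at 24 h. Leaving out Ang II 24 h replicate 3 alone gave -0.47 at 24 h. Without both arrays that stood apart the differences were -0.49 at 12 h (adjusted p = 0.988 in limma) and -0.54 at 24 h (adjusted p = 0.867 in limma), each still with an unadjusted p under 0.05.

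The 5 genes above the mark whose signals ran most like that of Cd93 over the 15 arrays, of 2851 probe sets searched, were Sptan1, Enah, Ezh1, Mapk6 and Sf3a3. Sptan1 encodes a spectrin of the membrane skeleton, Enah a regulator of actin filaments, Ezh1 a histone methyltransferase, Mapk6 an atypical MAP kinase and Sf3a3 a splicing factor subunit. Pearson's r with Cd93 was 0.8 for Sptan1, 0.78 for Enah, 0.75 for Ezh1, 0.73 for Mapk6 and 0.73 for Sf3a3, with Spearman's rho of 0.8, 0.79, 0.76, 0.78 and 0.69. Without the 2 arrays farthest from the median of Cd93, r was 0.8, 0.65, 0.73, 0.81 and 0.73. These are the highest values of a search over the same arrays and are given as a description.

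E-selectin, encoded by Sele, is made by activated endothelium and slows leukocytes into rolling. Its log2 signals were 3.47, 3.77, 4.53, 3.34 and 3.93 in control replicates 1 to 5. At 12 h they were 3.69, 3.39, 3.19, 3.71 and 3.48, and at 24 h they were 3.54, 3.36, 3.45, 3.45 and 3.43. The 5 arrays at 24 h lay close together, from 3.36 to 3.54, and all 10 treated arrays lay below the control mean, while the control arrays spread from 3.34 to 4.53 (SD 0.47). The difference from control was -0.32 at 12 h (SE 0.18, 95% interval -0.70 to 0.07, adjusted p = 0.966 in limma, exact permutation p = 0.222) and -0.36 at 24 h (SE 0.18, -0.74 to 0.02, adjusted p = 0.723, exact permutation p = 0.127). The highest control value was that of replicate 3, the array that stood apart. Without it the differences were -0.14 and -0.18. Without control replicate 4, the lowest, they were -0.43 and -0.48, and without control replicate 1 they were -0.40 and -0.45. In the latter 4 cases the unadjusted p was under 0.05 and the adjusted p was 0.933, 0.603, 0.961 and 0.718 in limma.

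P-selectin, encoded by Selp, is stored in granules of endothelial cells and moved to the surface within minutes of a stimulus. Its log2 signal ran from 3.31 to 4.20 in control (median 3.75), from 3.35 to 4.36 at 12 h (3.66) and from 3.62 to 4.12 at 24 h (3.87). The treated ranges lay almost wholly within the control range. The differences from control were -0.05 at 12 h (-0.46 to 0.37) and 0.15 at 24 h (-0.27 to 0.56, adjusted p = 0.928 in limma, exact permutation p = 0.492). With 1 array left out the 24 h difference lay between 0.03, without control replicate 5, and 0.26, without control replicate 3, the array that stood apart, and it was 0.22 without both arrays that stood apart. It was also moved over 1.5 times by leaving out control replicate 2 (0.07), control replicate 4 (0.23) or Ang II 24 h replicate 2 (0.09). Cd34, a sialomucin that can carry selectin ligands on high endothelial venules, had the widest spread of the 10, with a within-group SD of 0.41. Its signal ran from 4.52 to 5.70 in control, from 4.58 to 5.88 at 12 h and from 4.91 to 5.62 at 24 h, and differed from control by -0.08 (-0.56 to 0.40) and -0.06 (-0.54 to 0.42). Madcam1, the addressin that binds gut-homing lymphocytes, ran from 3.56 to 4.29 in control, from 3.70 to 4.01 at 12 h and from 3.67 to 4.22 at 24 h. Its differences were -0.03 (-0.35 to 0.29) and -0.05 (-0.37 to 0.27), so for these 3 genes the differences were within the spread of the arrays, and the intervals allow differences of up to 0.56 log2 either way.

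Icam1 binds the leukocyte integrins LFA-1 and Mac-1 and is made in greater amount by inflamed endothelium. Its log2 signals were 3.36, 3.89, 3.80, 3.98 and 3.63 in control, 3.90, 3.91, 3.86, 3.78 and 3.65 at 12 h, and 3.96, 3.76, 4.23, 4.24 and 3.83 at 24 h. All 5 arrays at 24 h lay above the control mean of 3.73, and replicates 3 and 4 at 24 h lay above every control array, but the other 3 were within the control range. The difference from control was 0.27 at 24 h (SE 0.15, -0.03 to 0.58, adjusted p = 0.736 in limma, exact permutation p = 0.119), a signal 1.21 times that of control (0.976 to 1.49). At 12 h it was 0.09 (SE 0.15, -0.22 to 0.39, adjusted p = 0.99 in limma, exact permutation p = 0.54). At 24 h the difference was 0.18 without control replicate 1, the lowest array. Without Ang II 24 h replicate 3, the high array that also stood apart over all probe sets, it was 0.22, and without both arrays that stood apart it was 0.23. It was 0.33 without control replicate 4 (adjusted p = 0.67 in limma) or without Ang II 24 h replicate 2 (adjusted p = 0.71 in limma), and in both cases the unadjusted p was under 0.05. The study states, without showing data, that Ang II left the mRNA of ICAM-1 and VCAM-1 unaffected at 12 h and 24 h.

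Vcam1, the receptor for the integrin VLA-4 and a usual partner of Icam1 in inflamed vessels, gave log2 signals of 4.47, 4.27, 4.37, 4.76 and 4.11 in control. At 12 h they were 4.45, 4.57, 4.5, 4.17 and 4.52, and at 24 h they were 4.65, 4.16, 4.40, 4.81 and 4.06. The group means of 4.40, 4.44 and 4.42 lay closer to each other than the arrays of any group did. The differences from control were 0.05 at 12 h (SE 0.16, -0.29 to 0.39, adjusted p = 0.998 in limma, exact permutation p = 0.746) and 0.02 at 24 h (SE 0.16, -0.32 to 0.36, adjusted p = 0.992, exact permutation p = 0.921), and the 24 h interval in fold terms was 0.801 to 1.28. Icam2, which resting endothelium already carries, ran from 4.31 to 4.92 in control, from 4.62 to 5.13 at 12 h and from 4.58 to 4.87 at 24 h. It differed from control by 0.13 at 12 h (-0.17 to 0.44, adjusted p = 0.977 in limma, exact permutation p = 0.452) and by -0.01 at 24 h (-0.32 to 0.29, adjusted p = 0.995, exact permutation p = 0.944). Its lowest value, 4.31, was that of control replicate 1, and without this array the 12 h difference was 0.02.

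Alcam, which binds CD6 on T cells, was far above the mark, higher than 97.9% of all probe sets. Its log2 signals were 10.13, 10.32, 10.37, 9.79 and 9.79 in control, 10.05, 10.17, 9.98, 9.60 and 10.21 at 12 h, and 9.92, 10.00, 9.98, 9.96 and 9.41 at 24 h. All 5 arrays at 24 h lay below the control mean of 10.08, yet 4 of these 5 were above the lower pair of control arrays. The difference was -0.23 at 24 h (SE 0.17, -0.57 to 0.12, adjusted p = 0.826 in limma, exact permutation p = 0.23) and -0.08 at 12 h (-0.43 to 0.27, adjusted p = 0.991, exact permutation p = 0.667). The 24 h value lay between -0.30 and -0.11 with 1 array left out, the latter without Ang II 24 h replicate 5, the lowest array. It was -0.15 without control replicate 3 and -0.19 without both arrays that stood apart.

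Cd99l2, a relative of CD99 that in mice helps leukocytes cross endothelium, had log2 signals of 6.25, 6.52, 6.02, 6.56 and 6.69 in control. At 12 h they were 6.13, 6.40, 5.94, 6.36 and 6.04, and at 24 h they were 6.42, 6.19, 6.21, 6.34 and 6.73. All 5 arrays at 12 h lay below the control mean of 6.41 and all 5 at 24 h above the 12 h mean of 6.17. The difference from control was -0.23 at 12 h (SE 0.16, -0.56 to 0.09, adjusted p = 0.966 in limma, exact permutation p = 0.159) and -0.03 at 24 h (-0.36 to 0.30, adjusted p = 0.988, exact permutation p = 0.849). From 12 h to 24 h it was 0.20 (-0.12 to 0.53, adjusted p = 0.928 in limma, exact permutation p = 0.167). Without control replicate 3, the array that stood apart, the 12 h difference was -0.33, with an unadjusted p under 0.05 and an adjusted p of 1 in limma.

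**Figure D2:**
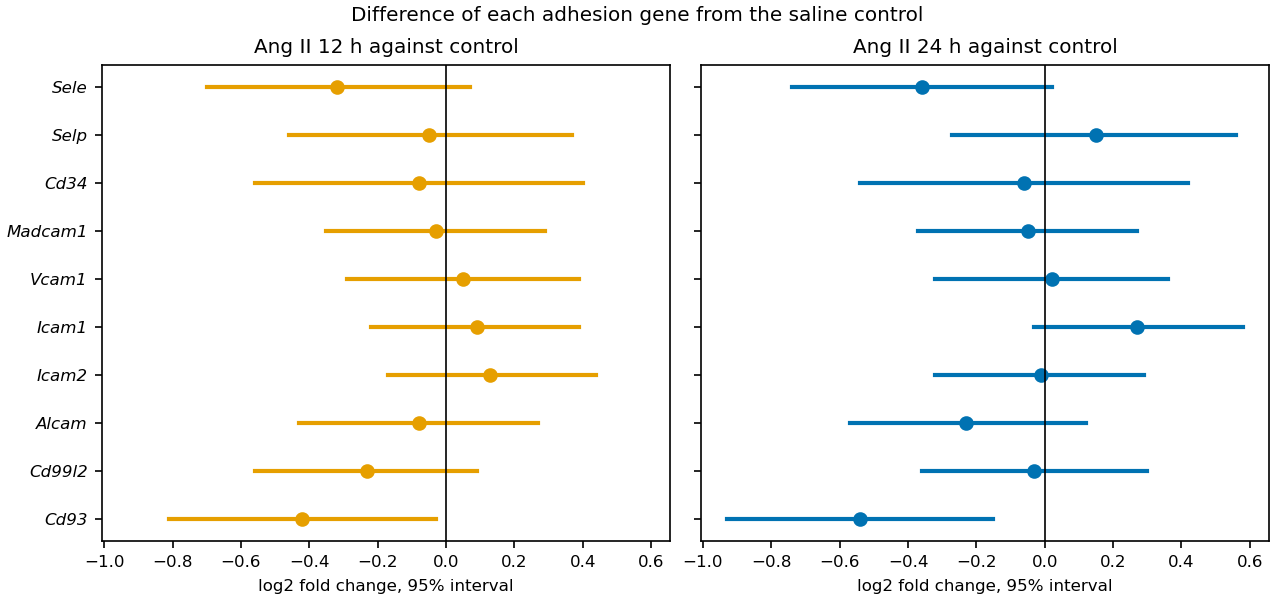
Log2 difference from control (x axis) of each member at 12 h and at 24 h, with the 95% interval. Cd93 lies at -0.42 and -0.54. The central 95% of all 22206 probe sets, which is not drawn here, had lower limits of -0.39 and -0.42. Every other member's interval crosses 0.

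As a set, 3 members had a mean above and 7 a mean below that of control at 12 h, and the counts were the same at 24 h. The 3 were Vcam1, Icam1 and Icam2 at 12 h, and Vcam1, Icam1 and Selp at 24 h. Over all probe sets 11093 means were above and 11068 below control at 12 h, and 11288 above and 10882 below at 24 h. The median log2 difference of the 10 was -0.06 at 12 h and -0.04 at 24 h, beside 0 and 0 over all probe sets. Both comparisons use the same 5 control arrays, so a member with high or low control values has that in both. From 12 h to 24 h the members' median was -0.02, beside 0.01 over all, with values from -0.15 for Icam2 and Alcam to 0.20 for Cd99l2. The within-group SD of the members was between 0.2 and 0.41, with a median of 0.25 beside 0.28 over all probe sets. With group means taken off, 41 of 45 pairs of members had an r between -0.5 and 0.5 over the arrays. The share among pairs of other probe sets was not computed, so this count says nothing particular about the members. The extremes were -0.69 for Icam1 with Cd93 and 0.67 for Sele with Madcam1. Without both arrays that stood apart the latter was 0.58, and Icam2 with Cd99l2 was at 0.59.

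**Figure D3:**
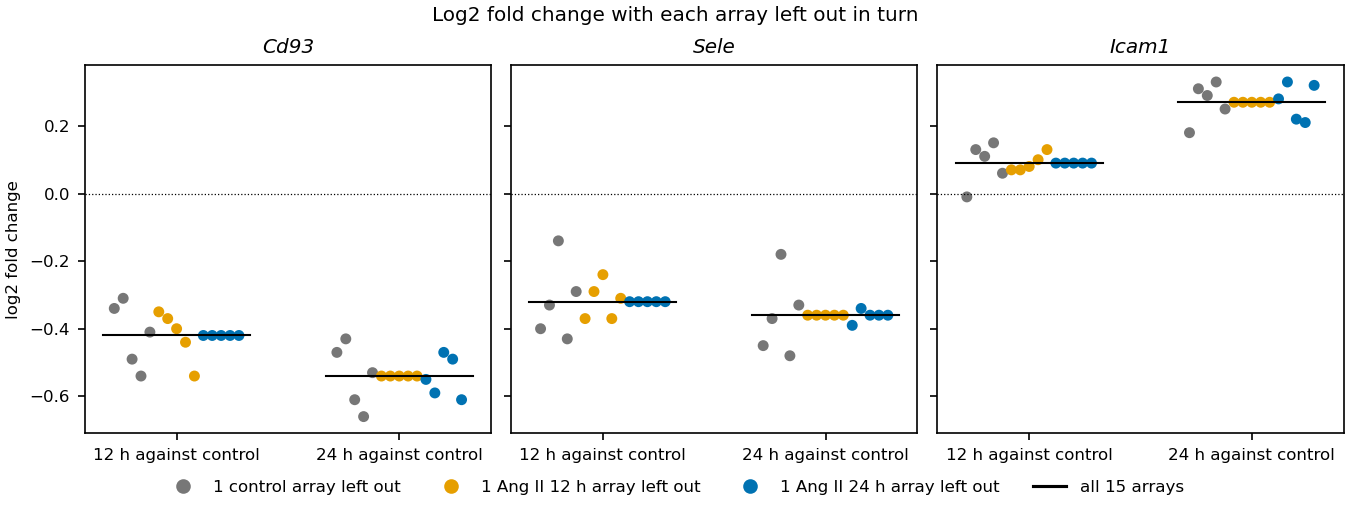
Log2 difference from control for Cd93, Sele and Icam1 with each of the 15 arrays left out in turn (points), at 12 h and at 24 h; the black line is the value with all 15 arrays. At 24 h Cd93 ran from -0.66 to -0.43, Sele from -0.48 to -0.18 and Icam1 from 0.18 to 0.33.

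The pathway around the members was read from 5 lists: selectin ligands and the enzymes that build them, other molecules of passage between cells, the actin docking structure under Icam1 and Vcam1, the tumour necrosis factor, interleukin-1 and NF-kB signals that induce adhesion molecules, and the relatives and matrix ligands of Cd93. Of 73 genes listed, 69 were measured, and 13 of these were above the mark. None had an adjusted p under 0.05 in limma in any of the 3 comparisons. Before adjustment 1 was higher and 1 lower at 12 h, 2 were higher and 1 lower at 24 h, and 1 was higher at 24 h than at 12 h. These were 2.9%, 4.35% and 1.45% of the 69, each below the share among all probe sets. The median difference from control over the 69 was -0.01 at 12 h and 0.02 at 24 h.

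Among the 18 measured genes of the inducing signals the largest difference was that of Il1r1, the interleukin-1 receptor. Its log2 signal was 5.53 ± 0.26 (SD, n = 5) in control, 5.82 ± 0.43 at 12 h and 6.17 ± 0.40 at 24 h, a difference of 0.63 at 24 h (SE 0.21, adjusted p = 0.553 in limma). Tradd, an adaptor of the tumour necrosis factor receptor, differed by 0.50 at 12 h (SE 0.17, adjusted p = 0.954 in limma) and by 0.29 at 24 h (adjusted p = 0.763). Nfkbia and Nfkbie encode inhibitors that hold NF-kB in the cytoplasm. Nfkbia differed by -0.34 at 12 h (adjusted p = 0.966 in limma) and -0.29 at 24 h (adjusted p = 0.736), and Nfkbie by -0.17 and -0.37 (adjusted p = 0.682). The unadjusted p was under 0.05 for Il1r1 and Nfkbie at 24 h and for Tradd and Nfkbia at 12 h. All 4 genes had mean levels below the mark.

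In the other lists 1 gene each had an unadjusted p under 0.05 among the selectin ligands and the relatives of Cd93. Chst2, a sulfotransferase that makes L-selectin ligands, was 0.43 higher at 24 h than at 12 h (adjusted p = 0.787 in limma), with differences from control of -0.23 and 0.19. Cd248, a relative of Cd93 known from stromal cells, differed from control by 0.38 at 24 h (adjusted p = 0.696 in limma). Thbd, another relative, differed by -0.12 at 12 h and by 0.10 at 24 h (SE 0.15 for both). Mmrn2, a matrix ligand of Cd93, differed by -0.17 and -0.22 at 12 h and 24 h (SE 0.18 for both), and Igfbp7, another ligand, by -0.24 and -0.19 (SE 0.19 for both). Among the 18 passage molecules and the 14 docking genes none had a p under 0.05 in any comparison. The smallest F test p was that of Cdh5, the adherens junction cadherin, in the former (adjusted p = 0.862 in limma) and of Cttn, cortactin, in the latter (adjusted p = 0.856 in limma). The docking linker Ezr differed by -0.33 at 24 h (adjusted p = 0.725 in limma) and Msn by -0.20 (adjusted p = 0.775), and 9 of the 14 docking genes were above the mark.

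**Figure D4:**
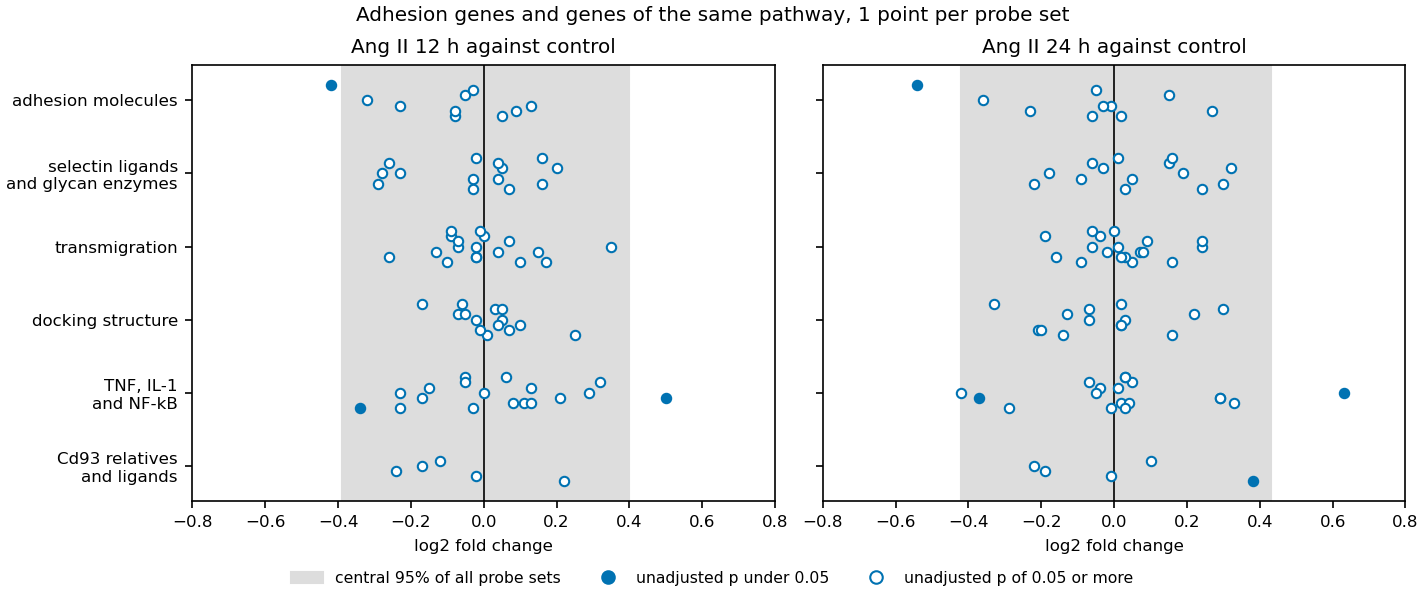
Log2 difference from control at 12 h and at 24 h (axis in log2 units) of the members and the genes of the 5 pathway lists, 1 point per gene; filled points have an unadjusted p under 0.05 and the grey band is the central 95% of all probe sets. The medians of the 69 list genes are -0.01 and 0.02, and Il1r1 lies highest, at 0.63 at 24 h.

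Of the markers of other cells, Ptprc, the pan-leukocyte antigen CD45, had a log2 signal of 6.75 ± 0.16 in control, 7.07 ± 0.28 at 12 h and 7.26 ± 0.26 at 24 h (SD, n = 5), a difference of 0.51 at 24 h (adjusted p = 0.553 in limma). The summed level of the 10 leukocyte markers ran from 45.2 to 46.8 in control, from 44.3 to 47.3 at 12 h and from 45.7 to 46.5 at 24 h, and the other 9 were below the mark. The 11 pan-endothelial markers summed to 47 to 47.7 in control, 46.9 to 49.1 at 12 h and 47.4 to 49.7 at 24 h, with Kdr differing by 0.63 (adjusted p = 0.553 in limma) and Vwf by -0.36 (adjusted p = 0.634) at 24 h. The 8 lymphatic markers summed to 36.3 to 38.7, 36.7 to 38.1 and 36.7 to 38.4. The epithelial marker Epcam, below the mark, differed from control by -0.49 at 12 h (adjusted p = 0.934 in limma) and -0.36 at 24 h (adjusted p = 0.67). Krt8, an epithelial keratin above the mark, differed by 0.20 at 12 h and -0.38 at 24 h, and by -0.58 from 12 h to 24 h (adjusted p = 0.787 in limma). The 5 epithelial markers summed to 26.2 to 28.3 in control, 26.3 to 27.1 at 12 h and 24.9 to 27.4 at 24 h. Of the fibroblast markers, all below the mark, Dcn differed by 0.37 at 12 h (adjusted p = 0.966 in limma) and Lum by 0.40 at 24 h (adjusted p = 0.7). The 6 fibroblast markers summed to 27.3 to 29, 27.3 to 30 and 27.3 to 28.8, and the 7 smooth muscle markers to 34.5 to 37.1, 35 to 36.4 and 34.5 to 35.9. The sums overlapped between groups in each list, and the part of other cells in the differences of Cd93, Sele and Icam1 was not tested. In RNA from whole cultures, fewer cells carrying a transcript and less of it per cell cannot be told apart.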

How the data were processed

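The values deposited by the authors are log2 signals of one array per sample, made by robust multi-array averaging and given to 2 decimals. Per the labels the scans were read with GCOS, and the methods name the Transcriptome Analysis Console. The version of GCOS and the genome build of the probe sets are not given in the sources used here, and the array the methods name is not the one whose probe set names the table carries. Symbols came from the platform annotation: 19572 of 22206 probe sets had 1 symbol, and 2634 had none or several. All 15 columns were used and 0 left out.

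All probe sets were fitted together with limma 3.58.1 in R 4.3.3 (lmFit, eBayes, 1 mean per group, a pooled spread), with Benjamini-Hochberg adjustment over the 22206. The fit was tested on simulated data with planted differences larger than any member showed. That test does not cover differences as small as those of the members. Pathway and marker lists were described by counts and medians. Every member is named, up to 4 genes of each other list by the smallest F test p, and the 5 genes most like the member with the smallest F test p; Prox1, Lyve1, Pecam1 and Ccl21a were named in addition to this rule, after their values were seen. The members and lists were chosen with earlier results of these data known. Alternatives covered normalization, a filter on low signals, variance moderation, array weights, a replicate block, fewer groups, arrays left out, probe sets averaged per gene, the methods' Duncan multiple range test and an exact permutation test over arrays, whose smallest two-sided p with 5 against 5 arrays is 0.00794. Array data give no read depth, and the number of arrays limits the precision: the 95% intervals of the members reached 0.3 to 0.48 log2 to either side in the comparisons with control.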

Additional observations from a re-analysis of the deposited data

Results flagged for a closer look

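In 30 groups (10 members in 3 groups of 5 arrays), 2 held an array far from the other 4, by Dixon's test at a critical value of 0.71; chance alone flags about 5% of groups. The log2 signal of Icam2 was 4.31 in control replicate 1, and the nearest of the other control arrays was at 4.82. The log2 signal of Alcam was 9.41 in Ang II 24 h replicate 5, and the nearest of the other 24 h arrays was at 9.92. Neither array is one of the 2 that stood apart over all probe sets.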

How the results depend on the processing

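No member had an adjusted p under 0.05 under any alternative; the lowest was 0.486, for Cd93 at 24 h. Of 729 log2 differences of members, 684 kept their direction and 45 changed sign, none of them with a size of 0.1 or more in all arrays. Many of the 684 could not change, so the tally is no measure of stability. The filter, the moderation settings, the replicate block, fewer groups and averaging per gene leave both group means as they are. The same holds for leaving out an array of the group not compared. Some differences did cross the unadjusted limit of 0.05 under alternatives, as the following counts show. The number of members with an unadjusted p under 0.05 at 12 h (1, Cd93) was 0 with the filter on low signals, without moderation, by Duncan's test (p = 0.056 for Cd93) and by the exact permutation test. It was 2 without both arrays that stood apart (Cd93, and Cd99l2 at -0.33), and 0 to 2 with 1 array left out. At 24 h the number was 0 with the filter and 1 to 3 with 1 array left out, and for the F test it was 0 with the filter and 0 to 2 with 1 array left out. The filter left 3 members in the fit, and Cd93 was not one of them.

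Without both arrays that stood apart the difference from control was 0.06 for Selp and 0.06 for Madcam1 at 12 h, and 0.02 for Icam2 and 0.01 for Cd34 at 24 h. With array weights it was 0.01 for Icam2 at 24 h, and -0.01 for Cd34 from 12 h to 24 h. The cause was not tested. With 1 array left out, the 12 h differences ran from -0.03 to 0.14 for Vcam1, -0.01 to 0.15 for Icam1, -0.21 to 0.06 for Selp, -0.12 to 0.06 for Madcam1, -0.27 to 0.08 for Cd34 and -0.15 to 0.02 for Alcam. The 24 h differences ran from -0.08 to 0.11 for Vcam1, -0.12 to 0.03 for Icam2, -0.14 to 0.04 for Madcam1, -0.26 to 0.04 for Cd34 and -0.13 to 0.04 for Cd99l2. From 12 h to 24 h they ran from -0.12 to 0.06 for Vcam1, -0.12 to 0.01 for Sele, -0.10 to 0.04 for Madcam1 and -0.14 to 0.18 for Cd34.

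The replicate numbers are shared by the groups, and nothing states whether equal numbers mean a shared culture or run. With each probe set's group mean taken off, the 15 correlations between same-numbered arrays lay between -0.04 and 0.05, and 0 were over 0.1. These values show no spread common to same-numbered arrays and do not settle whether the design was paired. With the replicate number as a block, Cd93 at 24 h was at -0.54 (adjusted p = 0.603 in limma), and the counts of members did not change (0 after adjustment and 1 before it at 12 h and at 24 h).

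The mean levels of 8 of the 10 members lay below the mark of 6.26, where signal cannot be told from that of unused genes.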
